A study of Mus musculus with 14 samples.

Results

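The Eif and Eef genes, which encode the translation initiation and elongation factors, were compared between aged and young neuronal nuclei from the mouse medial entorhinal cortex (MEC), a cortical area that holds spatially tuned neurons. The members were all genes in the deposited table whose symbol starts with Eif or Eef followed by a number, leaving out Eif2s3x, Eif2s3y and pseudogene names; 62 of the 27781 named genes met this rule. One of them, Eif2c5, has an Argonaute-related name and is annotated as a long noncoding RNA, so it is a member by its symbol and not an initiation factor. RNA had been extracted with TRIzol and chloroform and sequenced after SmartSeq library preparation from 7 aged and 7 young samples, which the labels separate only in a genotype field holding the words aged and young. The sources used here do not give age in months, sex or strain, nor say whether the libraries are from different animals; the p-values therefore measure the spread between these samples, which may be in part technical.

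Initiation factors bring the small ribosomal subunit, loaded with the initiator tRNA, to the start codon of an mRNA. The eIF4F complex recognizes the cap, eIF3 bridges the mRNA and the small subunit, eIF2 delivers the initiator tRNA, and eIF2B recharges eIF2 with GTP. Elongation factors then deliver each charged tRNA (eEF1A, recharged by eEF1B) and move the ribosome along (eEF2). In neurons this machinery also works in dendrites, where eEF2 kinase, the eIF2α kinases and the 4E-binding proteins hold it back, and loss of function in any eIF2B subunit causes vanishing white matter disease in humans.

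Many mRNAs of the translation machinery begin with a C followed by an unbroken run of pyrimidines, the terminal oligopyrimidine (TOP) tract that places them under control of mTORC1. Because of that class, the sequence around the annotated start is shown for 6 members on which the results below turn. Each window is RefSeq sequence of GRCm38.p6, read 5′ to 3′ on the gene's strand, with 25 bases before the annotated start and 30 bases after it. Capitals mark every C followed by at least 6 further C or T bases.
Eef1a1: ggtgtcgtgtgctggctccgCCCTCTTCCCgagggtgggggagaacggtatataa
Eef2: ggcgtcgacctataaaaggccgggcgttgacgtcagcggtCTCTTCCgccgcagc
Eif3l: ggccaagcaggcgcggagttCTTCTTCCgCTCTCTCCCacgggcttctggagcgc
Eif4g1: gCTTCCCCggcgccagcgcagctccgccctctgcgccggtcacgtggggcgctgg
Eef1b2: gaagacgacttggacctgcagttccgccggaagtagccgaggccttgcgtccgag
Eif4g3: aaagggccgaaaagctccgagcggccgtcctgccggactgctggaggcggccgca
These windows lie at chr9:78481695-78481749 (minus strand), chr10:81176606-81176660 (plus strand), chr15:79075198-79075252 (plus strand), chr16:20672702-20672756 (plus strand), chr1:63176806-63176860 (plus strand) and chr4:137993430-137993484 (plus strand), in the order printed. Eef1a1, Eef2, Eif3l and Eif4g1 carry a marked run, and Eef1b2 and Eif4g3 do not. A marked run is a match of letters near an annotated start, which need not be the start used in these cells, and Eif4g1's run lies wholly before its annotated start. Eif4g3 has another annotated start 1 base further on, also without a run.

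A first principal component with 69.6% of the variance split the 14 libraries into 2 sets. One set had high Xist, a transcript of the inactive X chromosome, and was nearly free of Y-linked transcripts (5 aged and 2 young libraries). The other had Xist at or near 0 and high Y-linked transcripts (2 aged and 5 young libraries). The sum of Y-linked transcripts was 1.14 to 11.1 in the Xist-positive and 4367 to 9425 in the Xist-negative libraries. The sets also differed in the number of genes above 0 (21152 to 22812 in the Xist-positive and 25263 to 25615 in the Xist-negative libraries) and in Malat1, a nuclear long noncoding RNA (11412 to 21489 and 55442 to 167698). The labels give neither sex nor batch, so whether the other differences between the sets go with sex or with a batch cannot be told apart here. Each age difference is therefore given both with age as the only term and after adding the library set (the set-adjusted fit). Neuronal markers were present in all libraries, with a sum of 100525 to 186479 in aged and 116079 to 160373 in young libraries. All 6 oligodendrocyte markers were also above 0 in every library, with sums of 5200 to 18463 in aged and 3487 to 9778 in young libraries, and all 6 astrocyte markers with sums of 6343 to 28598 and 9133 to 20926. The markers of other cell types were above 0 in every library too. Their sums in aged and young libraries were 244 to 1624 and 162 to 1547 (oligodendrocyte precursor), and 619 to 4063 and 585 to 3156 (microglia). They were 842 to 3154 and 1209 to 5030 (endothelial), 99.0 to 787 and 243 to 742 (mural), and 139 to 1239 and 205 to 851 (choroid plexus). The part of these non-neuronal transcripts in the results was not tested. In bulk nuclei, fewer cells of a type and less RNA per cell cannot be told apart. The depth of the libraries is unknown because the deposited values are normalized.

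All 62 members passed the filter on low values (7 or more libraries at a value of at least 1), and 59 were above 0 in every library. Values are the authors' normalized values throughout, and 28 members averaged 1000 or more over the 14 libraries. Divided by exon length in kilobases, the highest levels belonged to Eif3h (1287 per kb), an eIF3 subunit chosen here after its values were seen, Eef1a1 (1165 per kb), the eEF1A gene used by most tissues, and Eif1 (1151 per kb), which guards start codon choice. Eif4g3 (869 per kb), an eIF4G scaffold, Eif1b (760 per kb) and Eef2 (751 per kb) came next in the order of levels. Whether intronic reads of these nuclei were counted is something the sources used here do not give, so levels per exon length compare genes only roughly. At the low end were Eif4e1b (3.06 per kb), an eIF4E paralogue known from oocytes, Eif2c5 (9.61 per kb) and Eif3j2 (21.5 per kb), a near-identical copy of Eif3j1, and these 3 were the only members with a mean under 100. Eif2c5 had 0, 1.81 and 33.0 (lowest, median and highest) in aged, against 6.78, 10.4 and 32.3 in young libraries, with overlapping groups and log2 differences of -1.74 and -1.27 in the age-alone and set-adjusted fits described next (limma adjusted p = 0.225 and 0.525). Eif4e1b ranged from 0 to 27.2 in aged and from 0 to 17.5 in young libraries.

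No member passed the test for a difference between aged and young libraries in either model (limma, adjusted p under 0.05 over 24554 genes), where 0.00407% of all genes passed with age alone and 0.00815% in the set-adjusted fit. Most members had a higher average in aged libraries: 53 of 62 had a positive log2 difference with age alone, against 37.2% of all genes tested, and 38 of 62 in the set-adjusted fit, against 37.5%. The median log2 difference of the members was 0.25 with age alone, against -0.25 for all genes, and 0.19 in the set-adjusted fit, against -0.16. The set-adjusted median of the members was 0.06 without aged 13, and 0.32 with libraries scaled to equal totals, where 49 members were positive and the median of all genes was -0.04. The comparison was repeated with genes averaging 100 or more, a limit chosen after seeing the data. There, 53 of 59 members were positive with age alone (median 0.26, against -0.02 and 48.5% positive for all genes), and 37 of 59 in the set-adjusted fit (median 0.19, against -0.09 and 41.4%). The members were positive in both models for 37 genes, negative in both for 8, positive with age alone but negative with the set for 16, and the other way for 1.

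**Figure D1:**
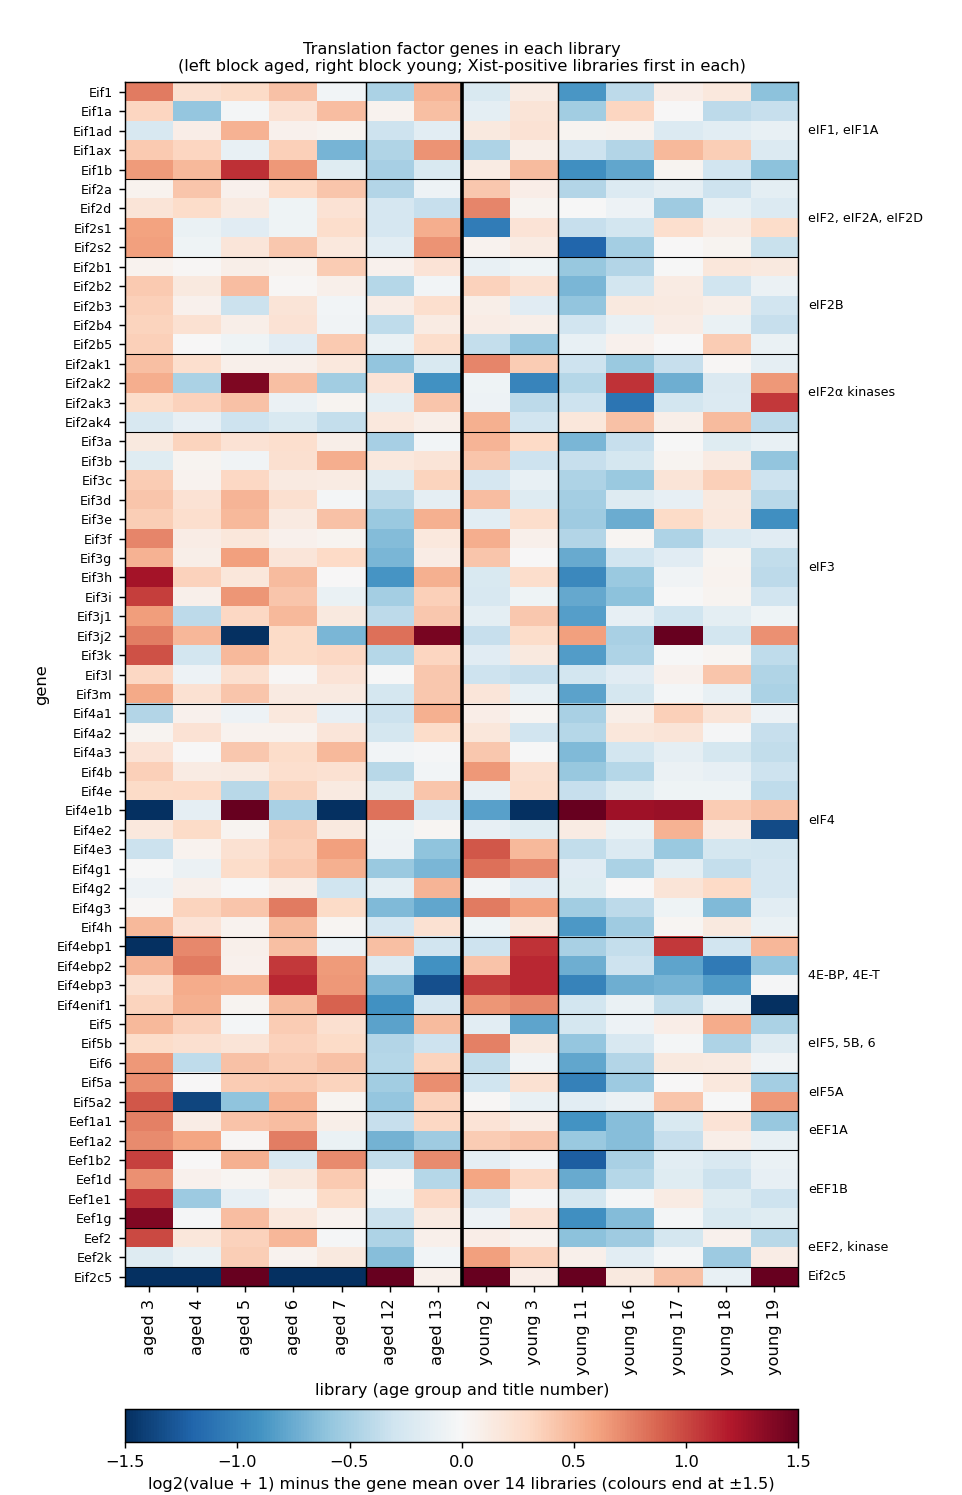
Level of each Eif and Eef gene (rows, grouped by complex) in each library (columns, aged left of young, Xist-positive libraries first in each), as log2(value + 1) minus the gene's mean over 14 libraries. Most rows are redder in the Xist-positive than in the Xist-negative libraries, and aged 3 and young 11 hold the highest and the lowest average of the members.

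The average of the 62 members per library, as centred log2 values, showed how age and library set overlap in these data. It was 0.06 to 0.28 in the 5 Xist-positive aged libraries, against 0.08 and 0.15 in the 2 Xist-positive young libraries. In the Xist-negative libraries it was -0.26 and 0.10 in the 2 aged, against -0.43 to 0.01 in the 5 young libraries. The ranges of aged and young libraries overlapped within both sets, and the Xist-positive set, which holds most aged libraries, lay higher than the Xist-negative set apart from aged 13. Within the sets, 38 members had a positive age difference among the Xist-positive and 42 among the Xist-negative libraries, against 39.8% and 37.8% of all genes; 34 were positive in both sets, 16 negative in both and 12 of opposite sign. No member had aged and young libraries that did not overlap (0.212% of all genes), and none passed the test of whether the age difference varied between the sets (0 of 24554 genes, with 3.62% at an unadjusted p under 0.05 and 0 members among them).

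The genes grouped by symbol with the start-selection factors eIF1 and eIF1A were positive in 5 of 5 with age alone (median 0.26). In the set-adjusted fit 4 of 5 were positive (median 0.20). Eif1ad, counted here by its symbol and not as a start-selection factor, had log2 differences of 0.0067 and -0.12. Eif1 had 1655, 2811 and 3968 (lowest, median and highest) in aged, against 1254, 1964 and 2562 in young libraries. The groups overlapped, although 6 of 7 aged libraries were above the young median; the log2 difference was 0.50 (SE 0.21, limma adjusted p = 0.190) with age alone and 0.37 (SE 0.22, adjusted p = 0.476) in the set-adjusted fit. Its paralogue Eif1b averaged 1025 ± 403 in aged and 685 ± 248 in young libraries (n = 7 each, SD), and its log2 difference of 0.56 (adjusted p = 0.222) became 0.20 (adjusted p = 0.722) in the set-adjusted fit. Eif1 and Eif1b are closely similar, as are Eif4a1 and Eif4a2, and how shared reads were counted is not given, so the split within each pair is uncertain.

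The genes grouped with eIF2 were its subunits Eif2s1 and Eif2s2 and the separate factors Eif2a and Eif2d. Of these, 4 of 4 were positive with age alone and 2 of 4 in the set-adjusted fit. The subunits were positive in both fits, and Eif2a (-0.0055) and Eif2d were negative in the set-adjusted fit. Eif2s2, the β subunit, had 589, 743 and 1044 in aged, against 288, 659 and 713 in young libraries, with overlapping groups and log2 differences of 0.51 (SE 0.22, adjusted p = 0.191) and 0.41 (SE 0.24, adjusted p = 0.461). Eif2s1, the α subunit whose phosphorylation slows initiation, had smaller differences of 0.24 (adjusted p = 0.506) and 0.34 (adjusted p = 0.553), and only 3 of 7 aged libraries exceeded the young median. Eif2d, which can deliver the initiator tRNA by another route, had differences of 0.05 and -0.17 that lay on either side of 0.

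All 5 eIF2B subunits were positive with age alone (median 0.19, range 0.15 to 0.25), and 4 of 5 in the set-adjusted fit (median 0.19), and none passed (smallest limma adjusted p = 0.318 and 0.461). Eif2b3, the γ subunit of the exchange factor, averaged 1522 ± 224 in aged and 1359 ± 240 in young libraries (n = 7 each, SD), and Eif2b5, the catalytic ε subunit, 906 ± 149 and 795 ± 168. Their log2 differences in the set-adjusted fit were 0.19 (adjusted p = 0.646) and 0.31 (adjusted p = 0.461).

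The eIF2α kinases, which couple stress to initiation, had differences of either sign. Eif2ak4, which encodes the amino acid sensor GCN2, had 1700, 1868 and 2429 in aged, against 1655, 2445 and 3158 in young libraries. All 7 aged libraries were below the young median, a pattern found in 10.5% of all genes, but the groups overlapped and the log2 difference was -0.29 (SE 0.17, adjusted p = 0.272) with age alone and -0.21 (adjusted p = 0.626) in the set-adjusted fit. Eif2ak3, the endoplasmic reticulum stress kinase PERK, had 1215, 1627 and 1819 in aged, against 629, 1107 and 2792 in young libraries. Here all 7 aged libraries exceeded the young median, and the young group held both the lowest and the highest value; the differences were 0.37 in both models (adjusted p = 0.328 and 0.553). Eif2ak1, the heme-regulated kinase, had differences of 0.06 and -0.25 (adjusted p = 0.873 and 0.478).

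The eIF3 complex, the largest group, had 13 of 14 genes positive with age alone (median 0.32) and 11 of 14 in the set-adjusted fit (median 0.26), and 13 and 14 of them lay above the median of all genes. Eif3l, a peripheral subunit, had 1136, 1379 and 1590 in aged, against 875, 988 and 1597 in young libraries. All 7 aged libraries exceeded the young median, as in 5.58% of all genes, and young 18 alone exceeded all aged libraries; the log2 difference was 0.31 (SE 0.16, adjusted p = 0.224) with age alone and 0.37 (SE 0.17, unadjusted p = 0.0388, limma adjusted p = 0.357) in the set-adjusted fit. Among members, 7 in all had every aged library above the young median.

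Eif3m and Eif3i were also positive in both fits. Eif3m averaged 1000 ± 178 in aged and 730 ± 154 in young libraries (n = 7 each, SD), with log2 differences of 0.46 (SE 0.18, adjusted p = 0.183) and 0.33 (SE 0.18, adjusted p = 0.441). Eif3i, a subunit built of WD repeats, had 475, 863 and 1385 in aged, against 398, 570 and 697 in young libraries, with overlapping groups and differences of 0.55 (adjusted p = 0.188) and 0.41 (adjusted p = 0.461). Eif3a, the large scaffold subunit, had 0.14 with age alone and -0.10 in the set-adjusted fit (0.03 there when libraries were scaled to equal totals). Eif3j2 was listed at 0 in 1 aged library and had a mean of 50.1 in aged and 52.2 in young libraries.

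**Figure D2:**
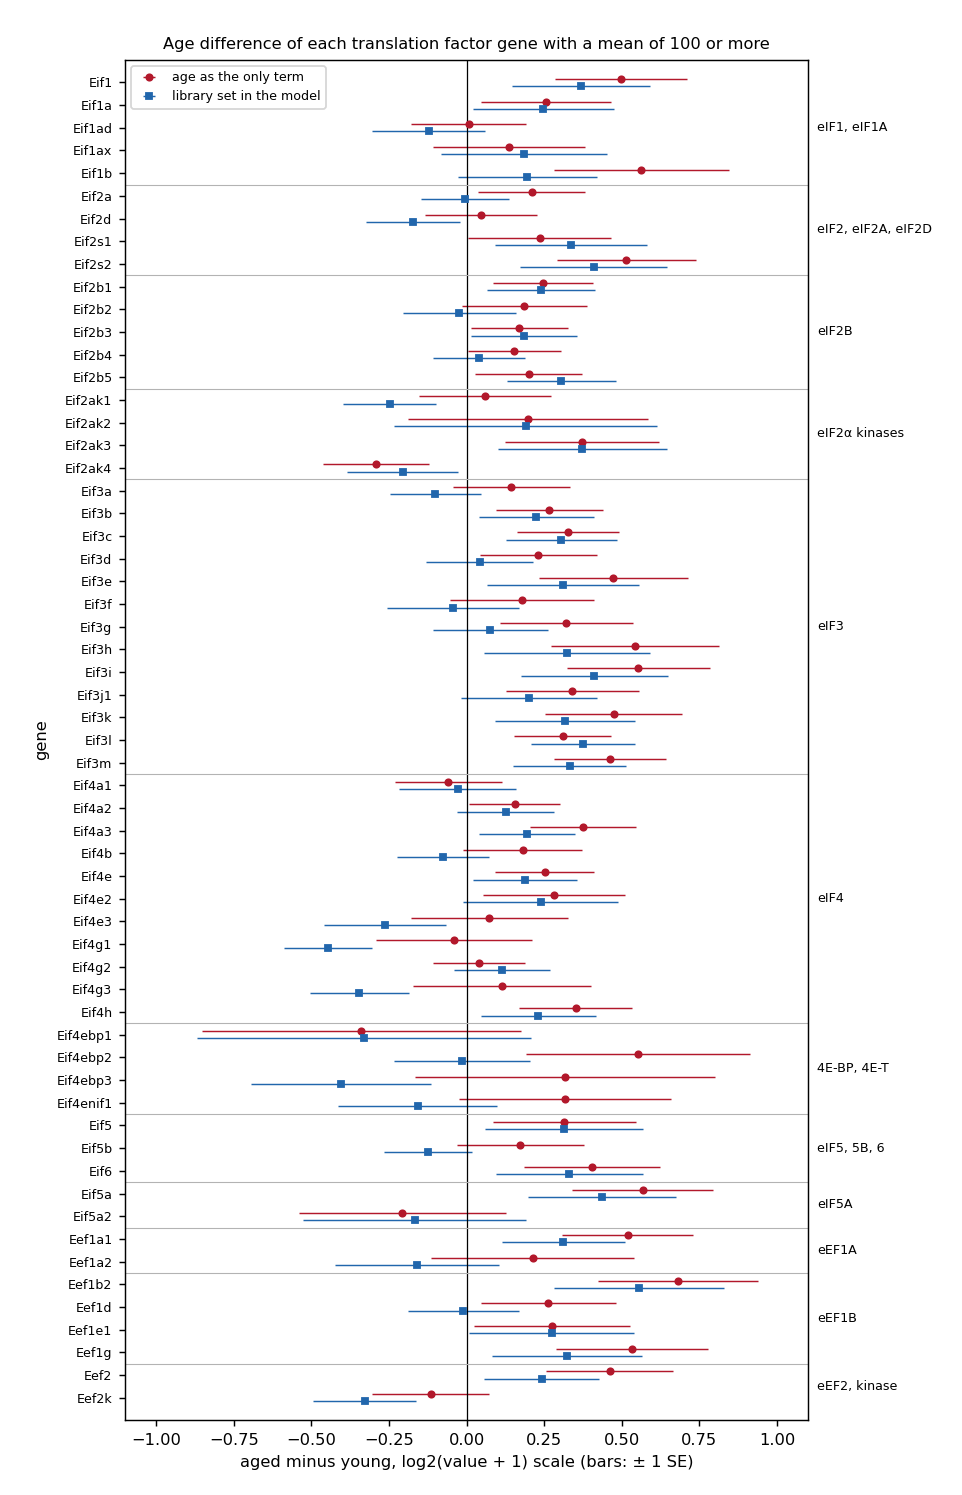
Aged minus young difference (log2) of the 59 members averaging 100 or more, with 1 SE, for age as the only term (red circles) and in the set-adjusted fit (blue squares), grouped by complex. Red circles lie right of 0 in 53 of 59 genes and blue squares in 37 of 59, and the shift to the left is widest for Eif4ebp3, Eif4ebp2, Eif4g1, Eif4g3 and Eif4enif1.

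Of the 12 eIF4 genes grouped as the cap complex with its helper factors and relatives, 9 were positive with age alone and 7 in the set-adjusted fit. This count therefore does not describe the cap complex alone. The age differences of Eif4g1 and Eif4g3 were lower in the set-adjusted fit. Eif4g2, a relative of the eIF4G scaffolds chosen after its values were seen, had 0.04 with age alone and 0.11 in the set-adjusted fit. Eif4g1 (chr16:20668313-20692884, plus strand, protein-coding), the scaffold that joins the cap-binding protein eIF4E, the helicase eIF4A and eIF3, had 1857, 2964 and 4315 in aged, against 2148, 2649 and 5308 in young libraries, and its log2 difference with age alone was -0.04 (SE 0.25, adjusted p = 0.930). Split by library set, its Xist-positive values were 2799, 2964, 3623, 3912 and 4315 in aged, against 4904 and 5308 in young libraries. Its Xist-negative values were 1857 and 2032 in aged, against 2148, 2330, 2501, 2649 and 2695 in young libraries. In both sets every aged library was thus below every young library, which held for no other member and for 1.20% of all genes (the opposite pattern held for 0 members and 0.619% of all genes).

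In the set-adjusted fit, the log2 difference of Eif4g1 was -0.45 (SE 0.14, unadjusted p = 0.00621), the smallest p of any member in that fit, without passing once adjusted for all 24554 genes (limma adjusted p = 0.252). In the authors' deposited table, Eif4g1 was the only member called, with a log2 fold change of -0.44 and an adjusted p of 0.0460, among 2.41% of all genes (512 of 21253). This fold change lay near the set-adjusted difference of -0.45 and not near the -0.04 with age alone. The authors' model is not given, and their call rests on the same libraries, so it is no separate evidence. That table gives 39 members a positive and 23 a negative fold change, with a median of 0.19, against -0.16 over all genes. An unadjusted p under 0.05 was reached there by 4 members (Eif4g1 and Eif4g3 lower, Eef1b2 and Eif3l higher), against 14.5% of all genes.

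Eif4g3, another eIF4G scaffold, had 5258, 10945 and 15511 in aged, against 5702, 8065 and 15433 in young libraries, with wide overlap. The Xist-positive libraries had 9083 to 15511 in aged, against 13779 and 15433 in young, and the Xist-negative had 5258 and 5686 in aged, against 5702 to 8642 in young. The groups were separate in the Xist-negative set and overlapped in the Xist-positive set through aged 6. The log2 differences were 0.11 (adjusted p = 0.816) with age alone and -0.34 (SE 0.16, unadjusted p = 0.0457, limma adjusted p = 0.370) in the set-adjusted fit, so the direction depended on whether the set was modelled. Eif4g1, Eif4g3 and Eif3l were the only members with an unadjusted p under 0.05 in that model, 3 of 62 against 13.1% of all genes.

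Like Eif4g1 and Eif4g3, the other genes grouped with the cap complex did not pass in either fit. Eif4e, the cap-binding protein, averaged 3034 ± 591 in aged and 2527 ± 394 in young libraries (n = 7 each, SD), with log2 differences of 0.25 (adjusted p = 0.305) and 0.19 (adjusted p = 0.636). The helicase gene Eif4a2 averaged 3695 ± 434 in aged and 3347 ± 612 in young libraries, and its paralogue Eif4a1 1251 ± 292 and 1292 ± 220. The log2 ratio of Eif4a2 over Eif4a1 was 1.58 ± 0.24 in aged and 1.37 ± 0.17 in young libraries (n = 7 each, SD), a difference of 0.21 (exact permutation test, two-sided p = 0.0816, adjusted over 2 ratios 0.135). The mean of the differences within each library set was 0.15 (labels permuted within the sets, exact permutation p = 0.234). For the difference over all libraries, leaving out aged 13 gave 0.27 and an adjusted exact permutation p of 0.0420. This library thus decided whether the ratio passed.

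The 4E-binding proteins, which compete with eIF4G for eIF4E, and the transporter 4E-T had 3 of 4 positive differences with age alone and 0 of 4 in the set-adjusted fit. Eif4ebp2, the main neuronal 4E-binding protein, had 353, 944 and 1391 in aged, against 317, 444 and 1458 in young libraries. Its groups overlapped almost fully, and its log2 difference was 0.55 (SE 0.36, adjusted p = 0.318) with age alone and -0.01 (SE 0.22, adjusted p = 0.984) in the set-adjusted fit, or 0.12 there with equal totals. Eif4enif1, which encodes 4E-T, had 0.32 (adjusted p = 0.554) and -0.16 (adjusted p = 0.810). Eif4ebp1, a target of mTORC1, averaged 103 ± 47.3 in aged and 122 ± 61.7 in young libraries, with differences of -0.34 and -0.33 and SEs of 0.51 and 0.54.

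Among factors for subunit joining, Eif6, which keeps the large subunit apart from the small, had differences of 0.40 (adjusted p = 0.245) and 0.33 (adjusted p = 0.542). Eif5b, the GTPase that joins the subunits, had 0.17 with age alone and -0.12 in the set-adjusted fit (0.01 there with equal totals). Eif5a, which carries the amino acid hypusine and helps ribosomes past stalls, had 996, 1863 and 2309 in aged, against 703, 1156 and 1669 in young libraries. Its groups overlapped with 6 of 7 aged libraries above the young median, and its log2 difference was 0.57 (SE 0.23, adjusted p = 0.186) with age alone and 0.44 (SE 0.24, adjusted p = 0.441) in the set-adjusted fit. Eif5a was the only member that passed when aged 12 was left out of the model with age alone (0.70, limma adjusted p = 0.0484), where 9.70% of all genes passed (2381 of 24554).

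**Figure D3:**
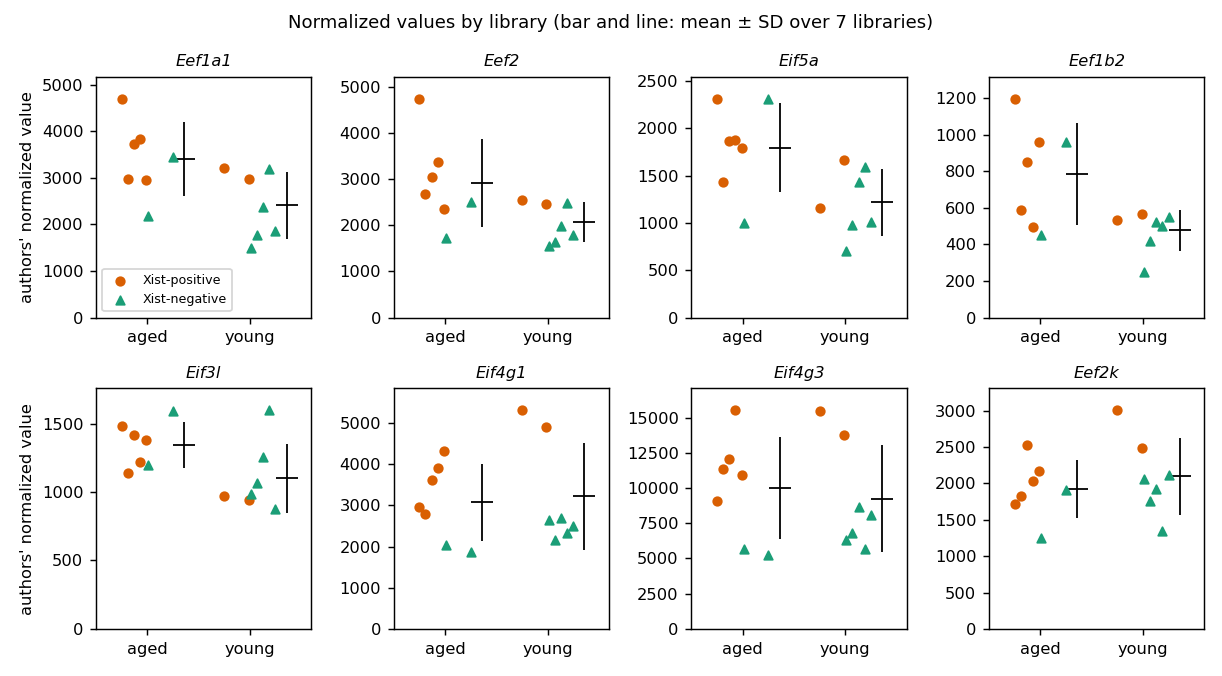
Normalized value of 8 members in each library, aged left of young, for Xist-positive (orange circles) and Xist-negative (green triangles) libraries, with the mean ± SD of the 7 libraries. Eef1a1, Eef2, Eif5a and Eef1b2 have higher aged means with overlapping groups, and for Eif4g1 the aged points lie below the young points of the same colour.

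The Eef genes were positive in 7 of 8 with age alone and 5 of 8 in the set-adjusted fit. They include the eEF2 kinase gene Eef2k, which is not an elongation factor and was negative in both fits. Eef1e1 is likewise counted by its symbol and not as an elongation factor, with a log2 difference of 0.27 in both fits. Eef1a1, the tRNA-delivering GTPase, had 2180, 3439 and 4690 in aged, against 1493, 2367 and 3204 in young libraries. The groups overlapped with 6 of 7 aged libraries above the young median, and the log2 difference was 0.52 (SE 0.21, adjusted p = 0.187) with age alone and 0.31 (SE 0.20, adjusted p = 0.501) in the set-adjusted fit. Processed pseudogenes close to Eef1a1 exist in the genome, so its value may hold or lack shared reads.

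Eef1a2, the paralogue that replaces Eef1a1 in mature neurons and muscle, was low in these nuclei, with 106, 176 and 298 in aged, against 112, 161 and 236 in young libraries, and 88.7 per kb of exon. The log2 ratio of Eef1a2 over Eef1a1 was -4.14 ± 0.45 in aged and -3.83 ± 0.23 in young libraries, a difference of -0.31 (exact permutation test, two-sided p = 0.135, adjusted 0.135). The mean of the differences within each library set was -0.47 (labels permuted within the sets, exact permutation p = 0.0317, adjusted over 2 ratios 0.0635). Over both sets, the ratio was lowest in aged 13 (-4.83) and highest in aged 4 (-3.50), so the aged libraries enclosed the range of the young. In the Xist-positive set the aged libraries (-4.40 to -3.50) also enclosed the young (-3.82 and -3.66). In the Xist-negative set both aged libraries (-4.35 and -4.83) lay below every young library (-4.10 to -3.52).

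Eef1b2, an exchange subunit that recharges eEF1A, had the largest difference of any member with a mean of 100 or more in both models, with 453, 849 and 1194 in aged, against 247, 524 and 566 in young libraries. Aged 12 and aged 6 lay within the young range and the other 5 aged libraries above it. The log2 difference was 0.68 (SE 0.26, unadjusted p = 0.0178, limma adjusted p = 0.182) with age alone and 0.56 (SE 0.27, adjusted p = 0.399) in the set-adjusted fit. Eef1g, another subunit of the exchange complex, averaged 1444 ± 683 in aged and 958 ± 239 in young libraries, with 0.53 (adjusted p = 0.203) and 0.32 (adjusted p = 0.558).

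Eef2, the translocase, had 1730, 2687 and 4743 in aged, against 1556, 1987 and 2558 in young libraries, with differences of 0.46 (SE 0.21, adjusted p = 0.196) and 0.24 (SE 0.19, adjusted p = 0.571). Its kinase gene Eef2k, whose product inactivates eEF2, averaged 1919 ± 395 in aged and 2097 ± 532 in young libraries, with differences of -0.12 (adjusted p = 0.708) and -0.33 (SE 0.17, adjusted p = 0.410). Neither passed, and the aged and young ranges overlapped for both genes.

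Counted by unadjusted p, 11 members were under 0.05 with age alone, all of them higher in aged libraries, against 24.1% of all genes in either direction and 6.50% in that direction. They were Eif1, Eif2s2, Eif3i, Eif3k, Eif3m, Eif4a3, Eif5a, Eef1a1, Eef1b2, Eef1g and Eef2. When libraries were weighted by their estimated variability (array weights), 27 members passed with age alone, 25 as higher and 2 (Eif2ak4 and Eif2c5) as lower, against 53.1% of all genes in either direction and 14.8% as higher (13048 of 24554 called). In the set-adjusted fit, the same weighting called 10 genes and 0 members.

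Between the library sets, part of the members differed. With age in the model, 21 of 62 members passed, all of them higher in the Xist-positive libraries, against 15.5% of all genes in that direction and 52.0% in either. For 12 members the sets did not overlap, again all higher in the Xist-positive set, against 4.88% of all genes. The largest differences in that direction were those of 2 of the 3 4E-binding protein genes. Eif4ebp3, chosen after its values were seen, had 151 to 281 in Xist-positive and 50.4 to 125 in Xist-negative libraries (log2 difference 1.68, limma adjusted p = 0.000150). Eif4ebp2 had 697 to 1458 and 317 to 574 (1.32, limma adjusted p = 0.000105). Eif4enif1 had 821 to 1467 in Xist-positive and 256 to 742 in Xist-negative libraries (1.11, limma adjusted p = 0.00175). Eif4g3 at 1.07 and Eif4g1 at 0.95 followed. The other genes of these families did not pass, with Eif4ebp1 at -0.02 (limma adjusted p = 0.977) and Eif4g2, chosen after its values were seen, at -0.17 (limma adjusted p = 0.363). The 3 members with the smallest p for age alone did not pass between the sets, with Eef1b2 at 0.29 (adjusted p = 0.386), Eif5a at 0.31 (adjusted p = 0.294) and Eif3m at 0.30 (adjusted p = 0.178).

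Gene span, the distance from a gene's first to last base, went along with the age difference in all genes, and the members are short: their median span was 17.6 kb, against 29.9 kb for all 15439 genes averaging 100 or more with a known span. Across 5 equal groups of those genes from short to long, the median log2 difference of all genes with age alone was 0.24, 0.03, -0.08, -0.13 and -0.13. The members had 0.32 (21 genes), 0.27 (15 genes), 0.24 (13 genes), 0.17 (7 genes) and 0.06 (3 genes) in the same groups. In the set-adjusted fit, all genes had 0.13, -0.04, -0.12, -0.19 and -0.22, and the members 0.24, 0.23, 0.19, -0.12 and -0.25. The members' medians were thus above those of all genes of like span in 5 of 5 groups with age alone and 4 of 5 in the set-adjusted fit. The part of gene span in the members' differences was not tested.

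**Figure D4:**
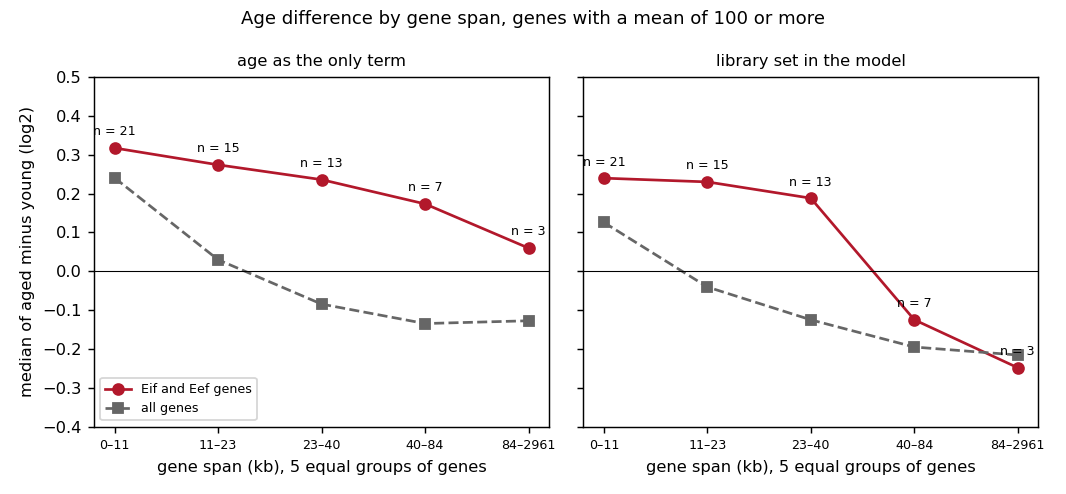
Median aged minus young difference (log2) in 5 equal groups of genes by span in kilobases, for the Eif and Eef genes (red circles, number of members beside each) and all genes averaging 100 or more (grey squares), with age alone at left and the library set in the model at right. Both lines slope down with span, and the members lie above all genes except in the longest group at right.

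Members with and without the pyrimidine run shown above were set side by side, with no test. The run does not tell whether an mRNA begins with a TOP tract, so these are not groups of TOP and other mRNAs. The run (a C and at least 6 further C or T bases) was searched on the gene's strand only, over all annotated starts of a gene. RefSeq promoters were at hand for 48 members, 47 of them with a mean of 100 or more, and 17 of those 47 (36.2%) carried a run, against 28.2% of genes tested at that level and 24.3% of all 32851 promoter windows of the same length. Members with a run had a median log2 difference of 0.21 with age alone (14 of 17 positive) and -0.02 in the set-adjusted fit (8 of 17). Members without a run had 0.26 (28 of 30 positive) and 0.19 (21 of 30). All genes with and without a run had -0.01 and 0.01 with age alone and -0.10 and -0.07 in the set-adjusted fit.

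Genes of neighbouring steps were described from lists, and none of their members passed in either model. Over all genes tested, 37.2% were positive with age alone (median -0.25) and 37.5% in the set-adjusted fit (median -0.16). Integrated stress response targets, which respond to phosphorylated eIF2α, were positive in 8 of 10 with age alone (median 0.20) and 7 of 10 in the set-adjusted fit (median 0.18). Of these, Ddit3, a transcription factor of the terminal stress response, averaged 629 ± 213 in aged and 344 ± 154 in young libraries, with log2 differences of 0.91 (limma adjusted p = 0.182) and 0.63 (limma adjusted p = 0.339). Asns, asparagine synthetase, averaged 2347 ± 404 in aged and 1728 ± 498 in young libraries, with 0.47 in both models (limma adjusted p = 0.183 and 0.338).

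Poly(A)-binding proteins and their partners were positive in 6 of 6 with age alone (median 0.41) but 2 of 6 in the set-adjusted fit (median -0.07). Genes of mTORC1, its regulators and its translational arm, such as the S6 and eIF4E kinases, were positive in 5 of 12 (median -0.03) and 1 of 12 (median -0.22). Of these, 9 of 12 lay above the median of all genes with age alone and 4 of 12 in the set-adjusted fit. The genes of smallest p in each fit were Mknk1 (log2 differences -0.39 and -0.23) and Rptor (-0.02 and -0.38). Neuronal repressors of translation were positive in 3 of 11 (median -0.09) and 0 of 11 (median -0.23). Of the repressors, 9 of 11 and 2 of 11 lay above the median of all genes. Their genes of smallest p were Cpeb1 (-0.44 and -0.40) and Cpeb2 (-0.08 and -0.37). Termination and recycling factors were positive in 6 of 8 and 5 of 8, and the mitochondrial translation factors in 6 of 9 (median 0.33) and 5 of 9 (median 0.06). Chosen the same way in the remaining lists were Paip2 (0.49 and 0.28), Hbs1l (-0.27 and -0.28), Mtrf1 (0.55 and 0.33) and Mtif3 (0.33 and 0.35). Pelo, with low means of 44.6 in aged and 21.0 in young libraries, had 1.92 and 0.53.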

How the data were processed

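Neuronal nuclei from the MEC of aged and young mice were profiled by SmartSeq RNA sequencing, per the labels' protocols; the submitters' processing notes name mm10, STAR, kallisto and DESeq2, giving no roles. The authors deposited normalized signal per gene for 14 libraries (7 aged, 7 young), their log2 fold change with its error, a test score (statistic), and their p-value and adjusted p-value, per the file headers. The sources used here do not give the counting, annotation or model. A nameless row (0.043 to 0.221% of a library) and a row named Recording were left out, and 0 value columns were unmapped. A search for whole steps placed at most 46.9% of low values within 0.05 of one (10% by chance), so reads were not recovered.

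A count test had been planned; since values are normalized, limma 3.58.1 (R 4.3.3, mean-variance trend) was run on log2(value + 1), which understates changes of low genes, for 24554 genes that reached 1 in at least 7 libraries, with Benjamini-Hochberg adjustment over all. Library sets were defined by Xist above 1000. Ratios were tested by exact permutation (3432 splits, or 441 within sets). The fits were tested on simulated data. Spans and exon lengths come from the GENCODE annotation of GRCm38, sequences from RefSeq GRCm38.p6. Members, lists and tests were chosen with earlier results of these data known. Named members are the main genes and paralogues of each role, the highest mean and largest difference in each role, and the smallest p in each direction and model; other names are said to be chosen later. Alternatives were pseudocounts, filters, equal totals, array weights, the first principal component as covariate, each set alone and leaving out each library.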

Additional observations from a re-analysis of the deposited data

Results flagged for a closer look

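In 3 of the 68 groups of 7 libraries examined among the named members, a single library stood apart from the rest by Dixon's criterion (a gap above 0.568 of the group's range, on log2(value + 1)), which chance alone gives in about 1 of 20 groups. Eef1b2 had 247 in young 11, against 416 to 566 in the other young libraries. Eif3j2 was listed at 0 in aged 5, against 22.5 to 101 in the other aged libraries. Eif4ebp1 had 16.4 in aged 3, against 79.7 to 161 in the other aged libraries. On the values without a log, a scale added after seeing the data, 0 of these 3 met the criterion and 6 others did (Eef1g in aged 3, Eif2ak3 in young 19, Eif2d and Eif5b in young 2, Eif3j2 in young 17 and Eif4e1b in aged 5).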

How the results depend on the processing

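No paired analysis was possible because the aged and young libraries share only the replicate number 3 in the labels. For age alone, 1 gene was called over all genes, against 13048 with array weights (27 members), 52 with equal totals, 7 with a pseudocount of 5, 60 and 5 in the Xist-positive set and the Xist-negative set alone, and 2 in the set-adjusted fit. In the set-adjusted fit, 2 genes were called, against 10 with array weights, 0 with the first principal component as covariate, 1 without a filter, and 60 and 5 in the sets alone. Leaving out 1 library at a time gave 0 to 2381 genes with age alone (2381 without aged 12, 115 without young 3, 18 without young 2) and 0 to 1 members, and 0 to 3 genes and 0 members with the set; positive members numbered 50 to 54 and 36 to 46, with medians of 0.18 to 0.30 and 0.06 to 0.20 (0.06 without aged 13). The Eef1a2 over Eef1a1 difference ranged from -0.41 to -0.19 (exact permutation adjusted p = 0.0711 to 0.267), and the Eif4a2 over Eif4a1 difference from 0.15 to 0.27 (adjusted p = 0.0420 to 0.231). Equal totals gave a median of all genes of -0.04 in the set-adjusted fit, against -0.16, with 49 members positive and a median of 0.32.

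Of the members and pathway genes named by rule, signs turned for these, none of them called in the main models; the cause was not tested. With age alone, array weights gave Eef2k 0.11, Eif4g1 0.35, Rptor 0.38 and Cpeb2 0.28. Set adjustment gave Eef1a2 -0.16, Eif2ak1 -0.25, Eif2d -0.17, Eif3a -0.10, Eif4e1b 0.12, Eif4ebp2 -0.014, Eif4enif1 -0.16, Eif4g3 -0.34 and Eif5b -0.12; the other 8 of the 17 members that turned were Eef1d, Eif1ad, Eif2a, Eif2b2, Eif3f, Eif4b, Eif4e3 and Eif4ebp3 (-0.40). The Xist-positive libraries gave Eef1a2 -0.0077, Eif2ak1 -0.35, Eif2d -0.23, Eif3a -0.19, Eif4e1b 1.02, Eif4ebp2 -0.17, Eif4enif1 -0.24, Eif4g3 -0.33 and Eif5b -0.18. The Xist-negative libraries gave Eef1a2 -0.31, Eif2ak1 -0.14, Eif2c5 0.055, Eif2d -0.11, Eif3a -0.0082, Eif3j2 0.69, Eif4a1 0.088, Eif4enif1 -0.080, Eif4g3 -0.36 and Eif5b -0.071.

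Relative to the set-adjusted fit, the Xist-negative libraries turned Eif2c5 (0.055), Eif3j2 (0.69), Eif4a1 (0.088), Eif4e1b (-0.78) and Eif4ebp2 (0.14). Equal totals turned Eif3a (0.032), Eif3j2 (0.060), Eif4a1 (0.10), Eif4ebp2 (0.12) and Eif5b (0.0080), array weights Eif3j2 (0.0048) and Eif4a1 (0.044), the first principal component Eif3j2 (0.15), and a pseudocount of 5 Eif3j2 (0.11). Leaving out single libraries turned, with age alone, Eif4g1 (-0.13 to 0.10), Rptor (-0.11 to 0.12), Eif2ak1 (-0.028 to 0.19), Eif4a1 (-0.15 to 0.0097), Eif4ebp1 (-0.49 to 0.050), Eif3j2 (-0.90 to 0.22), Eif4g3 (-0.0077 to 0.25), Eif2d (-0.038 to 0.17) and Cpeb2 (-0.16 to 0.032). With the set it turned Eif4a1 (-0.22 to 0.10), Eif4ebp2 (-0.18 to 0.16), Eif3j2 (-0.39 to 0.48), Eif4e1b (-0.39 to 0.55), Eif5b (-0.22 to 0.0013) and Eif4ebp1 (-0.55 to 0.011).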
